A study of Mus musculus with 13 samples.

Results

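The potassium channel subunits described here are the protein-coding genes of the deposited count table whose mouse symbol is Kcn, a subfamily letter (a to h, j, k, n, q or s to v) and a number. The pattern matched 80 genes, 3 of 80 matching genes were left out by name, and the remaining 77 members, in 16 subfamilies, were described out of 21772 protein-coding genes. RNA was sequenced from the right brain hemisphere of 13 mice at postnatal day 11, after removal of the olfactory bulb and the cerebellum, on a C57BL/6J strain background. The 5 nlsYAP5SA mice were NexCre +/- and YAP5SAnls +/- and form tumours that resemble ependymoma. The 5 controls, littermates from different matings, were NexCre -/- and YAP5SAnls +/-, so they carried the transgene without Cre. The 3 C57BL/6 mice were wild type and not littermates. Cre was expressed from the Neurod6 (NEX) locus, that is, in the lineage of excitatory neurons of cortex and hippocampus, and the transgene encodes a nuclear form of YAP1 that its inhibitory kinases cannot phosphorylate. The paper states that mice of both sexes were used, but the sex of each sampled mouse is not given.

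Potassium channels let potassium ions leave the cell along their gradient, and so set the resting potential and end the action potential. Voltage-gated pore subunits (Kcna to Kcnd, Kcnh, Kcnq) assemble as tetramers that open on depolarisation, and the subunits of Kcnf, Kcng, Kcns and Kcnv form no channel of their own but change the gating of Kcnb channels. Inward rectifiers (Kcnj) and tandem-pore channels (Kcnk) carry resting conductance in neurons, glia and vessels, Kcnn channels open with intracellular calcium, Kcnt channels with intracellular sodium, and the single-span Kcne proteins are accessory subunits. In the forebrain each neuron type combines several of these genes, and microglia, pericytes and astrocytes express other ones. In bulk tissue, fewer cells of a type and less RNA per cell cannot be told apart.

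Levels are given as CPM, counts relative to the size of a library scaled with its TMM factor, and between genes as CPM per kb of annotated exon. The libraries held 20871566 to 25524349 estimated counts, with 21380744 to 25524349 in controls, 20871566 to 23586887 in nlsYAP5SA and 21541836 to 24392197 in C57BL/6 samples. The labelled groups were checked on the genes of the design. Neurod6, whose locus carries the Cre allele, stood between 91.97 and 111 CPM in controls, between 38.6 and 56.9 CPM in nlsYAP5SA and between 88.3 and 102 CPM in C57BL/6 samples. Yap1 stood between 20.1 and 22.4 CPM in controls, between 22.5 and 26.4 CPM in nlsYAP5SA and between 19.3 and 21.5 CPM in C57BL/6 samples. Neurod6 was thus lower, and Yap1 slightly higher, in every nlsYAP5SA sample than in any control. The forebrain tissue of the labels was present in all groups: pan-neuronal markers summed to between 3704 and 4233 CPM in every sample, and the 7 hindbrain and cerebellar markers to between 0.805 and 1.94 CPM, with Hoxb3 and Hoxa4 at 0 in all 13. The summed level of the 4 Y-linked genes Ddx3y, Eif2s3y, Kdm5d and Uty was above 1 CPM in all 5 controls, in nlsYAP5SA replicates 3 and 4 and in C57BL/6 replicates 1 and 3, and at most 0.0936 CPM in the other samples, so the called members are also given for the samples above 1 CPM, called samples with Y-linked counts.

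In the controls the members covered a wide range of levels. Of the 77 members, 18 stood above 10 CPM per kb, 34 between 1 and 10 and 25 below 1, and no member was at 0 in all 13 samples. The inward rectifier Kcnj4 led with 30.8 ± 2.25 CPM per kb (mean ± SD, n = 5). Kcnd2, the subunit of the dendritic A-type current of pyramidal neurons, followed at 27.6 ± 2.90 CPM per kb, the silent subunit Kcnf1 at 25.47 ± 1.57 and the tandem-pore channel Kcnk1 at 24.8 ± 1.56. The means of Kcnd2, Kcnf1 and Kcnk1 differed by less than the SD of Kcnd2, so the order of these 3 is not settled by 5 mice. The next genes to lead a subfamily were Kcna6, a Shaker-type subunit, with 20.1 ± 0.580 CPM per kb, and Kcnq3, a subunit of the M current, with 19.3 ± 4.29 CPM per kb. Kcnc4 led the Kcnc subfamily with 17.5 ± 0.589, Kcnh3 the Kcnh subfamily with 15.1 ± 0.711 and the silent subunit Kcnv1 the Kcnv subfamily with 14.5 ± 2.68 CPM per kb. Kcng1 led its subfamily with 11.8 ± 0.612, the calcium-activated Kcnn1 with 5.53 ± 0.361, the sodium-activated Kcnt1 with 5.07 ± 0.259 and Kcns2 with 4.57 ± 0.531 CPM per kb. The lowest leading genes were Kcnu1, known from sperm, with 0.826 ± 0.114 CPM per kb, and the accessory subunit Kcne4 with 0.803 ± 0.136 CPM per kb. In the annotation an antisense gene shares 39.6% of the exon bases of Kcna6 and another 8.01% of those of Kcnk1, and the strand setting of the counting is not named.

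Some subfamilies held both abundant and barely detected genes. Kcnj ran from Kcnj4 down to Kcnj1, which had no count in controls, and Kcna from Kcna6 to Kcna7, with 1 count in the 5 controls (both low genes chosen after their values were seen). Kcnv1 held 99.9% of the summed level of its subfamily and Kcne4 92.0%, while Kcnj4 held 34.8% of the 13 Kcnj genes and Kcnh3 37.1% of the 8 Kcnh genes. Summed over all 77 members, the level was 472 ± 38.9 CPM per kb in controls (SD, n = 5), 443 ± 13.8 in nlsYAP5SA (SD, n = 5) and 481 ± 35.9 in C57BL/6 samples (SD, n = 3). The 3 groups overlapped: the sums ran from 424 to 520.2 in controls, from 429 to 462 in nlsYAP5SA and from 454 to 522 in C57BL/6 samples.

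**Figure D1:**
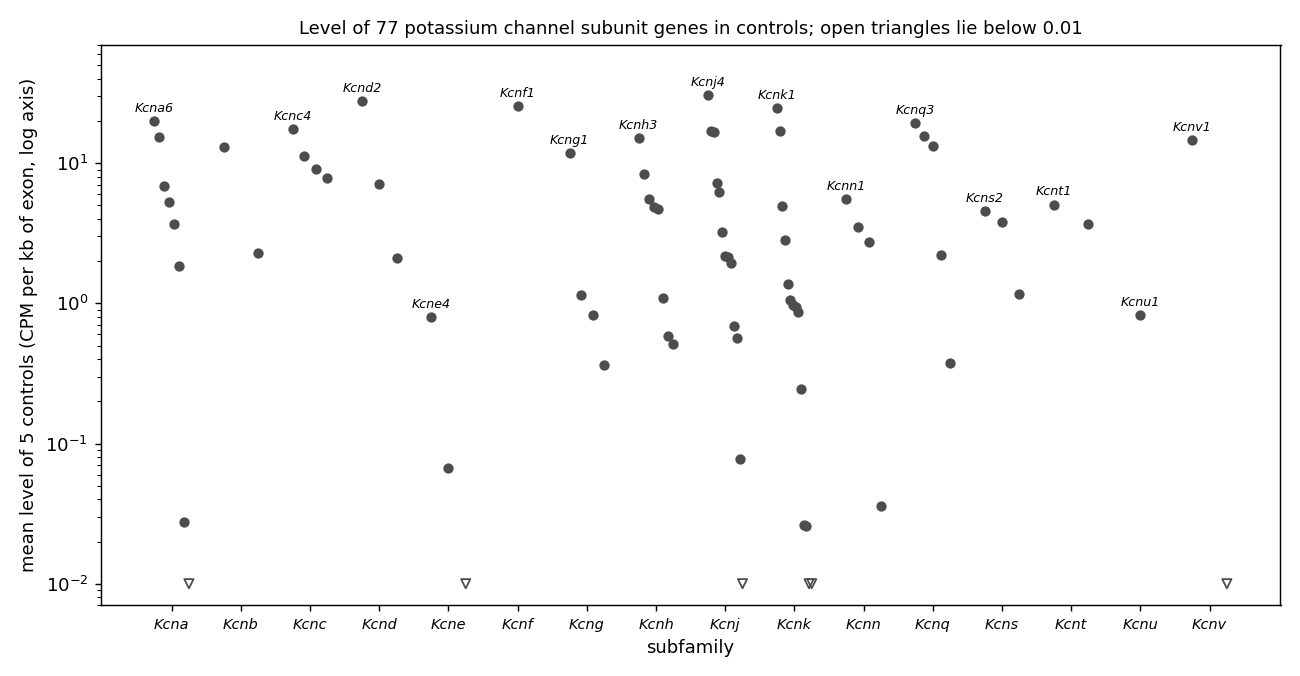
Mean level of each of the 77 members in the 5 controls, in CPM per kb of exon on a log axis, by subfamily, with leading genes named. Each point is a gene, open triangles mark genes below 0.01 CPM per kb, and Kcnj4, Kcnd2, Kcnf1 and Kcnk1 stand at the top.

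In the comparison of nlsYAP5SA with control mice, the groups differ in the activated YAP1 transgene and also in the Cre allele at Neurod6. They also differed in the Y-linked level, above 1 CPM in all 5 controls but only in nlsYAP5SA replicates 3 and 4. The X-linked gene Xist stood at most at 0.472 CPM in controls and at 293, 574 and 478 CPM in nlsYAP5SA replicates 1, 2 and 5. The Y-linked level was thus partly confounded with genotype. The separate parts of the transgene and the Cre allele were not tested, and fits that take in the Y-linked level are given below. The tandem-pore channel Kcnk6 and the Shaker-type subunit Kcna5 rose, by 2.16-fold and 1.75-fold. The silent subunit Kcng4 fell to 0.425 of its control level, and 10 further members fell to between 0.557 and 0.820 of theirs, among them Kcnq1, Kcnj8, Kcnn1, Kcnk4, Kcnj12, Kcng1, Kcnj11, Kcnk3 and Kcnj9. The test, edgeR's quasi-likelihood test with p values adjusted over all genes tested and a threshold of 0.05, covered 66 of the 77 members, since 11 did not pass the filter on low counts. Of these 66, 13 were called (19.7%, against 10.8% of all genes tested), 2 of them higher (3.03%, against 7.36%) and 11 lower (16.7%, against 3.44%). These shares moved with the settings: with an ordinary loess offset for GC content and length 15 of 66 members were lower, against 2034 of 16315 genes, and with the Y-linked level as a covariate 3 of 66 members were called, against 542 of 16315 genes. The median log2 fold change of the 66 was -0.09, against -0.01 over all genes tested, and 44 of 66 were below 0 (66.7%, against 51.3%). The median of the members stayed below 0 under all 20 alternatives, between -0.14 with an ordinary loess offset for GC content and length and -0.04 without control replicate 3. Every nlsYAP5SA sample lay above every control for 2 of the 66 tested members (Kcnk6 and Kcnk13), against 6.04% of all genes, and below every control for 9 members, against 4.24% of all genes. DESeq2 called 15 of 76 members, Kcne1 among them, which the filter of edgeR had removed, and 2249 of 29580 genes.

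**Figure D2:**
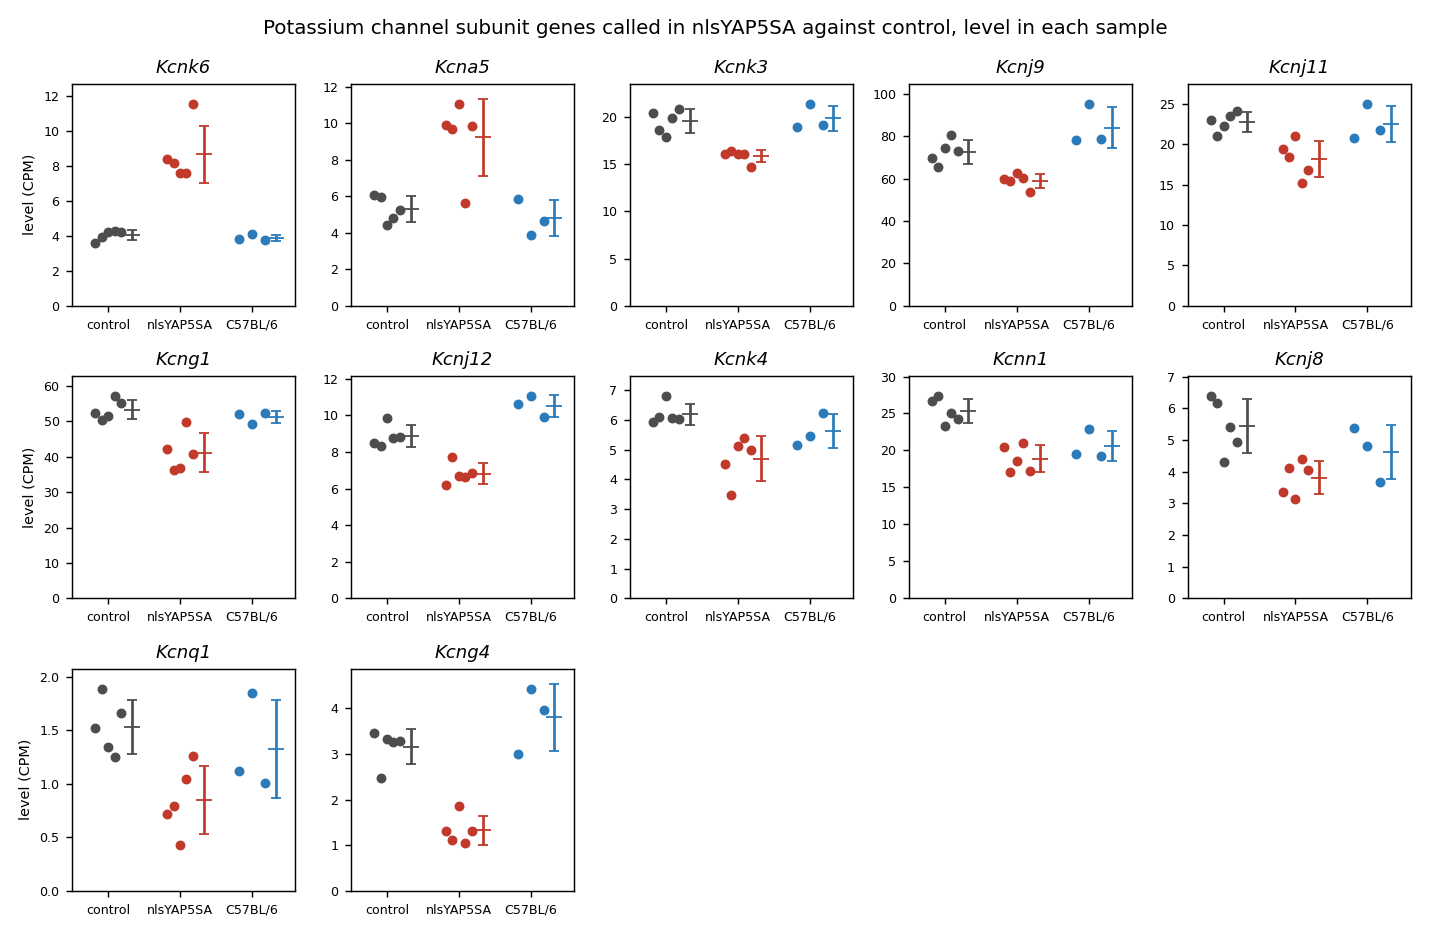
Level in CPM of 12 members called in nlsYAP5SA against control, in each of the 5 control, 5 nlsYAP5SA and 3 C57BL/6 samples. Points are samples, and bars give the mean and SD of a group; Kcnk6 and Kcna5 are higher in nlsYAP5SA, the others lower, and the nlsYAP5SA and control points overlap for Kcna5, Kcnj8 and Kcnq1.

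Among the tandem-pore channels, 10 of 14 members were tested, with 1 higher and 2 lower, against 7.36% and 3.44% of all genes tested. Kcnk6 (ENSMUSG00000046410; chr7:29221926-29232515 of GRCm38), a channel of endolysosomal membranes, macrophages and vascular smooth muscle, stood at 3.58, 3.94, 4.22, 4.27 and 4.22 CPM in controls 1 to 5, at 8.38, 8.14, 7.62, 7.57 and 11.5 CPM in nlsYAP5SA 1 to 5 and at 3.84, 4.09 and 3.77 CPM in C57BL/6 1 to 3. Every nlsYAP5SA sample was well above every other sample, with replicate 5 the highest, and the C57BL/6 samples lay among the controls. The log2 fold change was 1.11 (SE 0.12, adjusted p = 0.000104), and Kcnk6 was called in each of the 20 alternatives. Kcnk3, an acid-sensitive background channel, stood at 20.4, 18.6, 17.8, 19.9 and 20.8 CPM in controls, at 16.05, 16.4, 16.1, 16.02 and 14.7 CPM in nlsYAP5SA and at 18.95, 21.4 and 19.1 CPM in C57BL/6 samples. All 5 nlsYAP5SA samples lay below the lowest control, and the C57BL/6 samples overlapped the controls (log2 fold change -0.29, SE 0.07, adjusted p = 0.0169). Kcnk4, a mechanosensitive channel of neurons, was among the weakest calls, at 5.93, 6.10, 6.79, 6.06 and 6.03 CPM in controls, 4.53, 3.46, 5.12, 5.40 and 4.98 CPM in nlsYAP5SA and 5.14, 5.47 and 6.24 CPM in C57BL/6 samples. Its nlsYAP5SA samples were all below the lowest control, with replicate 2 the lowest and replicate 4 the nearest (log2 fold change -0.38, adjusted p = 0.05). The call of Kcnk4 ended when any 1 sample other than nlsYAP5SA replicate 4 was left out, with log2 fold changes between -0.42 and -0.29 in those fits. It also ended without the filter (adjusted p = 0.0849), with at least 10 counts in every sample (adjusted p = 0.0579) and with the robust loess offset for GC content and length (adjusted p = 0.0675). In the annotation 13.1% of the exon bases of Kcnk4 also belong to Catsperz on the same strand. Kcnk13, which sets the resting potential of microglia, stood between 2.74 and 3.84 CPM in controls and between 3.87 and 4.61 CPM in nlsYAP5SA samples. These ranges just failed to overlap, and the difference did not pass the test (log2 fold change 0.32, adjusted p = 0.101), but did with the robust loess offset for GC content and length (0.37, adjusted p = 0.0475). Kcnk1, the most abundant gene of the subfamily per kb, stood between 50.9 and 60.3 CPM in controls and between 44.01 and 58.1 CPM in nlsYAP5SA samples, with overlap (log2 fold change -0.03).

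Of the 8 Kcna genes 6 were tested, and 1 rose, against 7.36% of all genes tested. Kcna5 (ENSMUSG00000045534; chr6:126532551-126535412), the subunit of an ultrarapid delayed rectifier of heart and vessels that is also found in glia, stood at 6.05, 5.98, 4.43, 4.81 and 5.27 CPM in controls, at 9.91, 9.68, 11.1, 5.62 and 9.87 CPM in nlsYAP5SA and at 5.86, 3.90 and 4.66 CPM in C57BL/6 samples. Replicates 1, 2, 3 and 5 of nlsYAP5SA were above all controls, and replicate 4 fell within the range of the controls. The log2 fold change was 0.81 (SE 0.17, adjusted p = 0.00759) and 0.94 without nlsYAP5SA replicate 4. With the Y-linked level as a covariate Kcna5 was not called (log2 fold change 0.66, adjusted p = 0.147). Kcna3, a channel of lymphocytes and activated microglia, ranged between 3.70 and 10.4 CPM in controls and between 6.41 and 10.7 CPM in nlsYAP5SA samples, which overlapped (log2 fold change 0.27, not called). The axonal subunit Kcna6 varied little, between 115 and 125 CPM in controls and between 104 and 122 CPM in nlsYAP5SA samples (log2 fold change -0.08, not called).

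The fast-gating Kcnc channels allow short action potentials at high frequency, and the Kcnd channels carry an A-type current. Kcnc1 and Kcnc2, known from fast-spiking interneurons, and Kcnc4 were not called, with log2 fold changes of -0.21, -0.09 and -0.07, and their groups overlapped. With the ordinary loess offset for GC content and length Kcnc1 was called (log2 fold change -0.25, adjusted p = 0.0149). None of the 3 Kcnd genes was called by edgeR at the main settings or by DESeq2. Kcnd2 ranged between 117 and 155 CPM in controls and between 130.3 and 139 CPM in nlsYAP5SA samples.

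The silent subunits, which assemble with Kcnb subunits, held the member with the largest decrease. Kcng4 (ENSMUSG00000045246; chr8:119623854-119635680) stood at 3.46, 2.48, 3.33, 3.26 and 3.27 CPM in controls, at 1.3, 1.12, 1.85, 1.04 and 1.3 CPM in nlsYAP5SA and at 2.99, 4.42 and 3.97 CPM in C57BL/6 samples. Each nlsYAP5SA sample was below each control and each C57BL/6 sample, and control 2 was the lowest of the controls. The log2 fold change had an SE of 0.17 and an adjusted p of 0.000532, and lay between -1.39 and -1.16 when each sample in turn was left out. Kcng1 stood at 52.4, 50.5, 51.5, 57.1 and 55.3 CPM in controls, at 42.2, 36.3, 36.9, 49.8 and 40.9 CPM in nlsYAP5SA and at 52.1, 49.3 and 52.3 CPM in C57BL/6 samples. The nlsYAP5SA samples were all below the lowest control, replicate 4 only just (log2 fold change -0.36, SE 0.08, adjusted p = 0.0109). The summed level of the 4 Kcng genes was 13.3 to 15.05 CPM per kb in controls, 10.002 to 12.4 in nlsYAP5SA and 13.2 to 14.2 in C57BL/6 samples, and Kcng1 made up 83.5% of it in controls. Kcnf1, the most abundant silent subunit, stood at 114, 114, 128, 130.2 and 123 CPM in controls and at 111, 107, 110.2, 109 and 107 CPM in nlsYAP5SA samples. All nlsYAP5SA samples were below all controls by a small margin (log2 fold change -0.15, adjusted p = 0.0676), and the gene was called by DESeq2 (adjusted p = 0.0223) and by edgeR without control replicate 1 (adjusted p = 0.038) or 2 (adjusted p = 0.0496), or with the ordinary loess offset (adjusted p = 0.0135). Kcns2 and Kcnv1 were not called, with log2 fold changes of 0.04 and -0.12.

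The ether-a-go-go subfamily Kcnh and the Kcnq subfamily held 1 called gene among 13 tested, against 10.8% of all genes tested. Kcnq1, which carries repolarising current in heart and epithelia together with Kcne1, stood at 1.52, 1.89, 1.35, 1.25 and 1.66 CPM in controls, at 0.717, 0.795, 0.430, 1.04 and 1.26 CPM in nlsYAP5SA and at 1.12, 1.85 and 1.01 CPM in C57BL/6 samples. Replicates 1 to 4 of nlsYAP5SA were below all controls and replicate 5 was level with control 4 (log2 fold change -0.84, SE 0.25, adjusted p = 0.05). These levels rest on at most 48 counts per sample, and the call ended when any 1 sample other than nlsYAP5SA replicate 5 was left out, with log2 fold changes between -0.93 and -0.67 in those fits. It also ended without the filter (adjusted p = 0.0694), with all 13 samples in 1 fit (adjusted p = 0.0616) and with the robust loess offset for GC content and length (adjusted p = 0.0554). Kcnq3, a subunit of the M current, overlapped between the groups, ranging between 201 and 375 CPM in controls and between 255 and 337 CPM in nlsYAP5SA samples, and was not called. Kcnh3 and Kcnh4, of forebrain neurons, had log2 fold changes of -0.13 and -0.36 and were not called.

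Of the inward rectifiers 12 of 13 were tested and 4 fell, against 3.44% of all genes tested. Kcnj9, a subunit of channels opened by G proteins in neurons, stood at 69.8, 65.5, 74.3, 80.5 and 73.1 CPM in controls, at 59.98, 58.8, 62.6, 60.1 and 53.6 CPM in nlsYAP5SA and at 78.4, 95.3 and 78.5 CPM in C57BL/6 samples. The nlsYAP5SA samples were all below the lowest control, and C57BL/6 replicate 2 was the highest of all (log2 fold change -0.29, SE 0.06, adjusted p = 0.00903). Kcnj12, a strong inward rectifier of resting cells, stood at 8.48, 8.31, 9.87, 8.78 and 8.83 CPM in controls, at 6.19, 7.72, 6.67, 6.62 and 6.85 CPM in nlsYAP5SA and at 10.6, 11.03 and 9.88 CPM in C57BL/6 samples. The groups formed 3 steps, nlsYAP5SA lowest and C57BL/6 highest, with C57BL/6 replicate 3 next to control 3 (log2 fold change -0.37, SE 0.08, adjusted p = 0.0137 in nlsYAP5SA against control). With a robust loess offset for GC content and length Kcnj12 was not called (-0.31, adjusted p = 0.077). The pore subunits of the channels closed by ATP both fell. Kcnj11, the neuronal one, stood at 22.96, 21.1, 22.2, 23.5 and 24.2 CPM in controls, at 19.4, 18.4, 21.01, 15.2 and 16.8 CPM in nlsYAP5SA and at 20.8, 25.02 and 21.8 CPM in C57BL/6 samples. Replicate 3 of nlsYAP5SA came next to control 2 and the others lay further below (log2 fold change -0.31, SE 0.09, adjusted p = 0.037). Kcnj8, the subunit of pericytes and vascular smooth muscle, stood at 6.38, 6.18, 4.30, 5.39 and 4.94 CPM in controls, at 3.36, 4.12, 3.14, 4.40 and 4.05 CPM in nlsYAP5SA and at 5.36, 4.80 and 3.69 CPM in C57BL/6 samples. Control 3 and nlsYAP5SA 4 overlapped, and C57BL/6 replicate 3 lay within the nlsYAP5SA range (log2 fold change -0.50, SE 0.14, adjusted p = 0.036). Leaving out 1 sample ended the call of Kcnj8 in 7 of 10 cases, all but control replicates 3 and 5 and nlsYAP5SA replicate 4 (log2 fold change -0.53 to -0.44 in the fits that lost the call), and that of Kcnj11 in 7 of 10, all but control replicates 2 and 3 and nlsYAP5SA replicate 3 (-0.34 to -0.25). Kcnj4, the most abundant member per kb, and the glial subunit Kcnj16 were not called, with log2 fold changes of 0.05 and 0.02 and overlapping groups.

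The calcium-activated channel Kcnn1, which contributes to the afterhyperpolarisation of neurons, stood at 26.7, 27.3, 23.4, 25.1 and 24.3 CPM in controls, at 20.4, 17.1, 18.6, 21.1 and 17.2 CPM in nlsYAP5SA and at 19.6, 22.9 and 19.3 CPM in C57BL/6 samples. All nlsYAP5SA and all C57BL/6 samples were below the lowest control, so for this gene the wild-type mice stood nearer to nlsYAP5SA than to the controls (log2 fold change -0.41, SE 0.08, adjusted p = 0.00403 in nlsYAP5SA against control). Kcnn2, chosen after its values were seen, stood at 19.2, 18.7, 21.7, 21.2 and 20.7 CPM in controls, at 28.02, 26.7, 30.00, 17.3 and 27.3 CPM in nlsYAP5SA and at 19.8, 22.4 and 21.3 CPM in C57BL/6 samples. Replicates 1, 2, 3 and 5 of nlsYAP5SA were above all other samples and replicate 4 below all of them (log2 fold change 0.36, adjusted p = 0.086, and 0.48 with adjusted p = 0.000671 without nlsYAP5SA replicate 4). Kcnn4, a channel of microglia and blood cells, did not pass the filter in the comparisons with controls: it stood between 0.0411 and 0.427 CPM in controls, between 0.327 and 0.560 CPM in nlsYAP5SA and between 0.0405 and 0.238 CPM in C57BL/6 samples, with at most 13 counts in a sample. Against C57BL/6, where it passed the filter through the counts of the nlsYAP5SA samples alone, it was not called (log2 fold change 1.39, adjusted p = 0.134). Neither the sodium-activated Kcnt1 (log2 fold change 0.01) nor Kcnu1, of another subfamily (-0.25), was called.

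The 11 members that were not tested in nlsYAP5SA against control were Kcna7, Kcna10, Kcne1, Kcne3, Kcnj1, Kcnk7, Kcnk15, Kcnk16, Kcnk18, Kcnn4 and Kcnv2, with a mean over the 10 samples from 0 (Kcnk18) to 0.311 CPM (Kcnn4). The lowest member that was tested was Kcnj15, with a mean of 0.524 CPM. Kcne1, the accessory subunit of Kcnq1, was chosen from these after its values were seen: it stood at 0, 0, 0, 0.0418 and 0 CPM in controls, at 0.448, 0.187, 0.258, 0.348 and 0.605 CPM in nlsYAP5SA and at 0, 0 and 0.0405 CPM in C57BL/6 samples. All 5 nlsYAP5SA samples were above all others, with 41 counts in the group against 1 count in the controls. The ratio of the summed counts, scaled to the libraries, was 43.9 (exact 95% interval 7.45 to 1775, for counting error only, since reads are not independent molecules). Without the filter edgeR gave an adjusted p of 0.000556, and DESeq2 8.88e-05. Since Kcne1 was chosen by these same values, the ratio and the p values are no independent support for a difference. Kcne4 ranged between 1.90 and 2.76 CPM in controls and between 1.39 and 2.75 CPM in nlsYAP5SA samples and was not called.

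The comparison of wild-type mice with controls, which differ in the transgene without Cre and in their matings, gives the background to the comparison above, with which it shares the controls. C57BL/6 replicate 2 also lacked Y-linked counts, which every control held. By edgeR 0 of 66 members tested were called, 0 higher and 0 lower, against 0.169% of all genes (0.0484% higher and 0.121% lower). The smallest adjusted p was 0.756. At an unadjusted p under 0.05 there were 5 of 66 members, 2 of them higher, against 3.78% of all genes, and DESeq2 called 0. These 5 were Kcng2 (log2 fold change -0.44), Kcnh8 (-0.37), Kcnn1 (-0.29), Kcnj9 (0.22) and Kcnj12 (0.26), of which Kcng2 and Kcnh8 were named after their values were seen. No alternative called a member. The median log2 fold change was 0.0021 over the members and 0.0018 over all genes tested. That of the members was -0.09 without C57BL/6 replicate 3 and 0.08 without C57BL/6 replicate 2, so 1 library moved it by about as much as the median of -0.09 in nlsYAP5SA against control.

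Set against the 3 wild-type mice, nlsYAP5SA mice showed 9 of 67 tested members called (13.4%, against 6.38% of all genes), 2 of them higher (against 4.16%) and 7 lower (against 2.22%). The nlsYAP5SA samples are those of the comparison with controls, so the values stand side by side and are not independent. Kcnk6 had a log2 fold change of 1.14 (adjusted p = 0.00341; 1.11 against controls) and Kcna5 of 0.93 (adjusted p = 0.0362; 0.81 against controls). Kcng4 fell by 1.52 on the log2 scale (adjusted p = 0.00333; -1.24 against controls). The others included Kcnj12 (-0.64), Kcnj9 (-0.52), Kcnh4 (-0.50), Kcnk3 (-0.33) and Kcnf1 (-0.24). Kcnh4 stood at 3.41, 3.23, 3.19, 3.22 and 3.68 CPM in nlsYAP5SA, at 4.83, 4.47 and 4.82 CPM in C57BL/6 and at 4.07, 3.90, 5.52, 4.73 and 3.42 CPM in control samples, so that the nlsYAP5SA samples lay below all wild-type samples but overlapped the controls. The median log2 fold change was -0.09, against -0.01 over all genes tested. At the main settings the 6 members called only against controls were Kcng1, Kcnj8, Kcnj11, Kcnk4, Kcnn1 and Kcnq1. Their log2 fold changes against wild type were -0.33, -0.28, -0.32, -0.27, -0.14 and -0.65, and whether they differ between the comparisons was not tested. Kcng1 was also called against wild type by DESeq2 (adjusted p = 0.0491). By edgeR it was called with all 13 samples in 1 fit (adjusted p = 0.0418) and without nlsYAP5SA replicate 4 (adjusted p = 0.0176). With 3 wild-type mice the calls were less firm. Those of Kcng4, Kcnj9, Kcnj12 and Kcnk6 were kept whichever sample was left out, that of Kcnh4 in 0 of 8 cases, of Kcna5 in 1 (without nlsYAP5SA replicate 4), of Kcnk3 in 1 (without C57BL/6 replicate 3) and of Kcnf1 in 2 (without nlsYAP5SA replicate 4 or C57BL/6 replicate 3). Leaving out C57BL/6 replicate 3 moved the median of the members to 0.003.

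**Figure D3:**
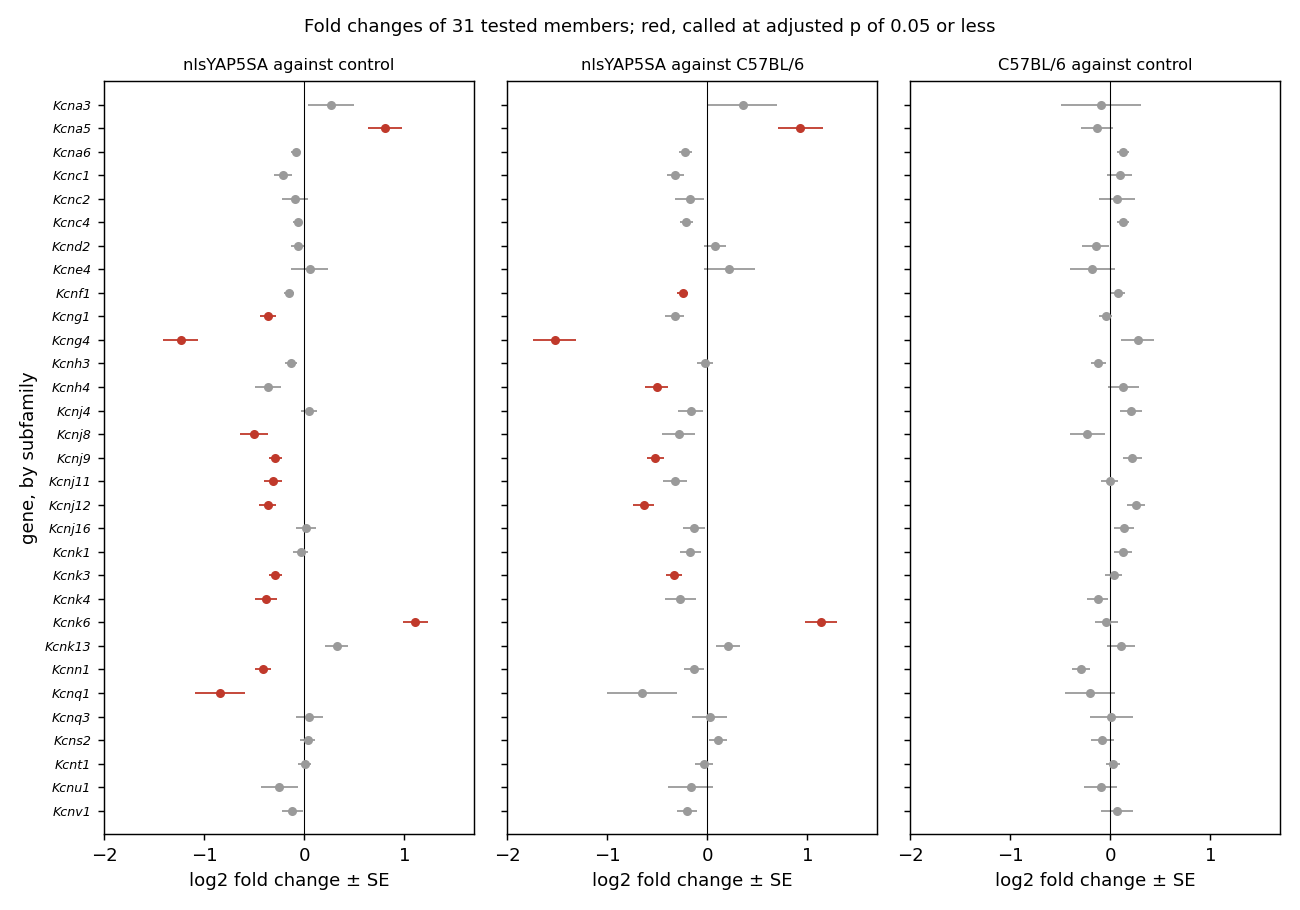
Log2 fold change with its standard error for 31 members tested in nlsYAP5SA against control, in each of the 3 comparisons. Points are genes, red points passed the test, and in C57BL/6 against control no point is red.

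In the samples with Y-linked counts alone (5 controls against nlsYAP5SA replicates 3 and 4, a setting chosen after the data were seen), Kcnk6 was the 1 member called, with a log2 fold change of 0.92 (adjusted p = 0.00526). Kcng4 had -1.11 (adjusted p = 0.0726) and Kcna5 0.66 (adjusted p = 0.305). The other called members named above kept their direction: the log2 fold changes were -1.05 for Kcnq1, -0.53 for Kcnj8, -0.41 for Kcnj12, -0.35 for Kcnn1, -0.32 for Kcnj11, -0.30 for Kcng1, -0.27 for Kcnk3, -0.24 for Kcnj9 and -0.23 for Kcnk4. With the summed level of the Y-linked genes as a covariate over all 10 samples, the called members included Kcnk6 and Kcng4. The calls of Kcna5, Kcng1, Kcnj8, Kcnj9, Kcnj11, Kcnj12, Kcnk3, Kcnk4, Kcnn1 and Kcnq1 ended, with adjusted p from 0.104 for Kcnj12 to 0.56 for Kcnk4. The log2 fold change of Kcnk4 was -0.23 with the covariate (-0.38 without it). It also shrank for Kcna5 (0.66, against 0.81 without it), Kcng1 (-0.29, against -0.36), Kcnj9 (-0.23, against -0.29) and Kcnn1 (-0.35, against -0.41). Of the members that stayed called, Kcng4 shrank to -1.12 (against -1.24) and Kcnk6 to 0.93 (against 1.11). Others stayed near their values or were larger in size, as Kcnj8 at -0.53, Kcnj11 at -0.32, Kcnj12 at -0.40, Kcnk3 at -0.27 and Kcnq1 at -1.03. Single alternatives called further members, named after their values were seen: Kcnk12 without control replicate 4 (log2 fold change -0.43, adjusted p = 0.0454), Kcnd3 with the robust loess offset (0.18, adjusted p = 0.0381), and Kcnn3 (-0.23, adjusted p = 0.0355) and Kcnq5 (-0.19, adjusted p = 0.0233) with the ordinary one.

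The members also varied among the controls. The median coefficient of variation over the 5 controls was 13.8% for the tested members and 11.1% for all genes tested. The most variable members were Kcng3 (61.7%), Kcnk5 (41.9%), Kcnh5 (37.7%), Kcna3 (35.5%) and Kcnj6 (33.8%), of which all but Kcna3 were named after their values were seen. Control 1 was lowest and control 3 highest for 25 of 66 members (37.9%, against 19.1% of all genes). Kcnq3 is an example, at 201, 262, 375, 284 and 300.1 CPM in the controls, 255, 337, 261, 299 and 306 CPM in nlsYAP5SA and 254, 213 and 387 CPM in C57BL/6 samples. Control 1 and C57BL/6 replicate 2 were near the bottom of that range, control 3 and C57BL/6 replicate 3 at its top. For 20 of the 25 members C57BL/6 replicate 2 was also the lowest and replicate 3 the highest of the wild-type mice. The order was not confined to the members. Over all genes tested, deviations from the group mean correlated by 0.42 between C57BL/6 replicate 2 and control 1. Between C57BL/6 replicate 3 and control 3 the correlation was 0.419. Exon length was not compared over all genes. The 25 genes had a median exon length of 6.90 kb, against 3.98 kb for the other tested members, and 1 of them, Kcnk4, was called in nlsYAP5SA against control. The astrocytic glutamate transporter Slc1a2 followed the same order in the controls, at 1722, 2132, 3911, 3077 and 3229.9 CPM. The part of RNA quality or dissection in this order was not tested. Members of low spread included Kcna6, Kcnc4 and Kcnf1, with a coefficient of variation of 2.89%, 3.37% and 6.15%.

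The channels work with partners outside the Kcn pore genes, and a list of 24 auxiliary and related genes held beta subunits, Kcnip proteins, the sulphonylurea receptors, the large-conductance channel with its subunits and the Hcn channels. In nlsYAP5SA against control, edgeR tested 22 of the 24 and called 0 higher and 5 lower, with a median log2 fold change of -0.12. Over all genes tested 7.36% were called higher and 3.44% lower, with a median of -0.01. Kcnip2 and Kcnip3, calcium-binding partners of Kcnd channels, had log2 fold changes of -0.27 (adjusted p = 0.019) and -0.27 (adjusted p = 0.00246). Kcnip3 stood at 85.3, 76.1, 84.3, 84.8 and 84.5 CPM in controls and at 68.3, 69.04, 67.2, 66.6 and 70.9 CPM in nlsYAP5SA samples, with a clear gap between the groups. Abcc8, the sulphonylurea receptor that pairs with Kcnj11, had -0.33 (adjusted p = 0.0309), and Abcc9, the partner of Kcnj8, -0.09 (not called). Lrrc55, an auxiliary subunit of the large-conductance channel, had -0.47 (adjusted p = 0.00671) and the pacemaker channel Hcn2 -0.32 (adjusted p = 0.0026). The pore gene of the large-conductance channel, Kcnma1, which the pattern of symbols does not take in, stood between 43.5 and 126 CPM in controls and between 60.4 and 119 CPM in nlsYAP5SA samples. Against C57BL/6 5 of 22 were lower and 0 higher, against 2.22% and 4.16% of all genes tested. In C57BL/6 against control edgeR called 0 of 22, and 0.169% of all genes tested.

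Markers of the cell types of the hemisphere moved as well, and their part in the results on the members was not tested. Beside the counts of markers, 7.36% of all genes tested were called higher and 3.44% lower in nlsYAP5SA against control. Of the 7 microglial markers 6 rose (among them Csf1r, Cx3cr1, Tmem119, Aif1 and C1qa, log2 fold changes 0.36 to 1.18). Their summed level was 308, 297, 342, 369 and 356 CPM in controls, 508, 537, 432, 525 and 563 CPM in nlsYAP5SA and 338, 368 and 312 CPM in C57BL/6 samples. All nlsYAP5SA samples were above all others, as they were for Kcnk6 and for Kcnk13, which was not called. For Kcna3 and Kcnn4, also known from microglia, they overlapped the controls. Of all genes tested, 6.04% had every nlsYAP5SA sample above every control. Of the 6 markers of pericytes and smooth muscle, Rgs5, the most abundant per kb, and Vtn fell (log2 fold changes -0.58 and -0.39), and the contractile genes Acta2 and Tagln rose (1.23 and 1.09). Their sum was 312, 351, 383, 376 and 372 CPM in controls, 246, 312, 215, 332 and 306 CPM in nlsYAP5SA and 395, 364 and 360.3 CPM in C57BL/6 samples. Of the 5 endothelial markers Cldn5, the most abundant per kb, and Cdh5 fell (-0.44 and -0.45), and the sum was 156, 155, 177, 181 and 178 CPM in controls, 129, 151, 118, 146 and 146 CPM in nlsYAP5SA and 179.97, 169 and 159 CPM in C57BL/6 samples. All nlsYAP5SA samples were below all controls for the endothelial sum, while nlsYAP5SA replicates 2 and 4 reached the lowest control for the sum of pericytes and smooth muscle.

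In C57BL/6 against control no gene of any of these lists was called by edgeR. No marker of the 5 pan-neuronal, 5 striatal and 4 thalamic neuron genes was called, with Tubb3, Ppp1r1b and Slc17a6 as their most abundant genes per kb, and the pan-neuronal sum was 4005 to 4233 CPM in controls and 3704 to 4115 CPM in nlsYAP5SA samples. Of the 7 excitatory cortical markers Neurod6 fell, at -0.98, and Nrgn, the most abundant per kb, had -0.22 (not called). The excitatory sum was 3288 to 4039.98 CPM in controls and 2788 to 3500.2 CPM in nlsYAP5SA samples. Of the 5 hippocampal markers Fibcd1 fell (-0.78) and Dsp rose (0.56), with Wfs1 the most abundant per kb. Of the 7 interneuron markers Pvalb, which marks fast-spiking cells, fell (-0.60), with Sst the most abundant per kb, and the sum was 664 to 734 CPM in controls and 646 to 742 CPM in nlsYAP5SA samples. The 1 tested hindbrain and cerebellar gene of 7, Cbln3, was not called. Of the 7 astrocyte markers Gfap (2.06), Gja1 (0.36) and Slc1a3 (0.31) rose and S100b fell (-0.35). Slc1a2 was the most abundant astrocyte gene per kb, and the astrocyte sum was 2987 to 5488 CPM in controls and 4870.1 to 6604 CPM in nlsYAP5SA samples. Of the 7 genes of the oligodendrocyte lineage Olig1 fell (-0.29), with sums of 1988 to 3127 CPM in controls and 1357 to 2626 CPM in nlsYAP5SA samples. Of the 5 ependymal markers Foxj1, the most abundant per kb, rose (0.78), and of the 6 choroid plexus markers Folr1 rose (2.20). The choroid plexus sum ran from 11.0 to 237 CPM in controls, from 13.4 to 307 CPM in nlsYAP5SA and from 10.9 to 266 CPM in C57BL/6 samples, with Ttr the most abundant gene per kb.

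YAP1 acts on DNA through TEAD factors, which bind the letters CATTCC, read GGAATG on the other strand. The 250 bases before the annotated start were therefore searched on both strands for the 6 letters in the RefSeq promoter table for GRCm38.p6. Of 32851 promoter windows 12.6% held a match. The table held 68 windows of 53 members, of which 12 (17.6%) had a match, and 8 windows of 7 of the 13 called members, of which those of Kcna5 and Kcnk4 had one. The windows of Kcna5 and Kcng4 are shown because these genes had the largest rise and the largest fall among called members with an entry. That of Kcna5 is chr6:126535556-126535805 (minus strand), with the match at position 123 in capitals, and that of Kcng4 is chr8:119635681-119635930 (minus strand), without a match. Kcnk6 had no entry.
Kcna5: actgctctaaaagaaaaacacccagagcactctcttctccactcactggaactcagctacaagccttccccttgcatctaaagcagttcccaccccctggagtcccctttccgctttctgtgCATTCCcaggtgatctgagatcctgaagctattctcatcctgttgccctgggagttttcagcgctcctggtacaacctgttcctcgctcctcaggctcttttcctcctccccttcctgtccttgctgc
Kcng4: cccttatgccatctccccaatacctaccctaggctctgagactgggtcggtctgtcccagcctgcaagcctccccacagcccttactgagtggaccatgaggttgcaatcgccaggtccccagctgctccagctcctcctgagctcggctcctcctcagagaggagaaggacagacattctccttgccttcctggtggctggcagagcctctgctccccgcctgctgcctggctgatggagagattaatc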

How the data were processed

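Libraries were made with KAPA mRNA HyperPrep kits. The authors deposited an estimated count per gene and sample: reads were trimmed with CutAdapt 1.5, mapped with STAR to GRCm38 with Ensembl transcripts and counted with RSEM 1.3.0, with no normalization. The strand setting is not named. Counts were rounded and fitted on all genes with edgeR 4.0.16 (TMM; filterByExpr, minimum count 10, minimum total 15) in R 4.3.3, with quasi-likelihood tests between 2 groups, two-sided. A gene was called if its p value, adjusted after Benjamini and Hochberg, was at most 0.05. DESeq2 1.42.0 and limma 3.58.1 served the alternatives (other normalization, filter, tool, covariate, GC and length offset, or 1 sample left out), and tables and figures were made in Python 3.11.15 (pandas 2.3.3, numpy 2.4.6, scipy 1.17.1, matplotlib 3.10.9). Symbols, positions and exon lengths are from GENCODE M21, which covers 48435 of 48795 identifiers (0.0523% of counts had no name). Promoters are from RefSeq. Members and lists were chosen with earlier results of these data known. Members were named if called in any comparison, leading their subfamily in controls per kb, or on a list of 10 role genes; of other lists, called genes and the most abundant. Results on some of these genes are not reported here. Tests were tried on simulated data.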

Additional observations from a re-analysis of the deposited data

Results flagged for a closer look

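In 68 groups of 5 samples (34 members, controls and nlsYAP5SA), 8 samples lay apart from the other 4, by a gap of more than 0.71 of the group's range. Chance sets apart a sample in about 1 of 20 groups that are independent. These groups share the same libraries, and some of the genes were chosen after their values were seen. No excess over that rate can therefore be read from them. Kcna5 was at 5.62 CPM in nlsYAP5SA replicate 4, with the others from 9.68 to 11.1. Kcnk1 was at 44.0 CPM in the same sample, with the others from 54.9 to 58.1. Kcnn2 was at 17.3 CPM there too, with the others from 26.7 to 30.0. Kcnk6 was at 11.5 CPM in nlsYAP5SA replicate 5, with the others from 7.57 to 8.38. Kcnk3 was at 14.7 CPM in that sample, with the others from 16.0 to 16.4. Kcng4 was at 2.48 CPM in control replicate 2, with the others from 3.26 to 3.46. Kcne4 was at 2.76 CPM in control replicate 4, with the others from 1.90 to 2.10. Kcnk4 was at 6.79 CPM in control replicate 3, with the others from 5.93 to 6.10.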

How the results depend on the processing

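The members named as called in nlsYAP5SA against control kept their direction in all 20 alternatives, and in C57BL/6 against control no alternative called a member. The counts below are members called higher and lower in nlsYAP5SA against control (2 and 11 as reported), the same against C57BL/6 (2 and 7), and auxiliary genes higher and lower (0 and 5 in both). The replicate number as a block (replicate block), although the numbers do not pair samples (correlation of same-numbered samples 0.249, -0.123, -0.268, -0.0733 and 0.0908), gave 4 members lower (the calls of Kcnj8, Kcnj11, Kcnj12, Kcnk3, Kcnk4 and Kcnq1 ended, adjusted p from 0.0514 to 0.0872, with log2 fold changes of -0.50, -0.32, -0.37, -0.28, -0.39 and -0.88) and 6 of 66 members called, against 1239 of 16315 genes, and against C57BL/6 0 higher, 0 lower and 0 auxiliary genes lower; with it Kcng1 (0.0084), Kcnj11 (0.040) and Kcnk6 (0.012) turned in C57BL/6 against control. The Y-linked covariate gave 1 higher, 2 lower and 1 auxiliary gene lower, and against C57BL/6 1 higher and 2 auxiliary genes lower; Kcne4 (-0.20), Kcnj16 (-0.14) and Kcnt1 (-0.019) turned, as did Kcnk3 (-0.025) in C57BL/6 against control. Samples with Y-linked counts (above 1 CPM) only, chosen after seeing the data and with fewer samples, gave 1 higher, 0 lower and 0 auxiliary genes lower, and against C57BL/6 0 higher, 0 lower, 0 auxiliary genes lower and a median of -0.19; Kcne4 (-0.21), Kcnj16 (-0.16), Kcnq3 (-0.017) and Kcnt1 (-0.027) turned, as did Kcnk3 (-0.028) in C57BL/6 against control. Of the offsets for GC content and length, the robust loess gave 4 members higher and turned Kcnc4 (0.0072), Kcnj16 (-0.011) and Kcnq3 (-0.0097). The ordinary loess gave 11 lower against C57BL/6 and turned Kcne4 (-0.036), Kcnj16 (-0.067), Kcnq3 (-0.032), Kcns2 (-0.031) and Kcnt1 (-0.033); over all genes it made 37.4% of calls higher, against 68.1%. DESeq2 gave 12 lower against C57BL/6, 1 auxiliary gene higher and Kcnt1 at -0.000291. No filter gave 4 lower against C57BL/6, and at least 10 counts in every sample 1 auxiliary gene higher. Leaving out each sample gave 7 to 10 lower, 0 to 1 auxiliary genes higher and 3 to 5 lower, and against C57BL/6 1 to 3 higher, 4 to 7 lower, 0 to 1 auxiliary genes higher, 1 to 4 lower and a median from -0.13 to 0.0028. Over these, log2 fold changes ran from -0.039 to 0.18 for Kcne4, -0.057 to 0.070 for Kcnj16, -0.013 to 0.10 for Kcnj4, -0.066 to 0.031 for Kcnk1, -0.049 to 0.16 for Kcnq3, -0.023 to 0.083 for Kcns2 and -0.029 to 0.055 for Kcnt1, and in C57BL/6 against control from -0.091 to 0.045 for Kcnj11 and -0.028 to 0.060 for Kcnk3. None of the genes that turned was called in the comparison in which it turned. The cause was not tested, apart from the smaller number of samples. The 11 untested members each had at most 13 counts per sample, and the part of sequencing depth in this was not tested.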
